A study of Mus musculus with 2 samples.

Results

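The cells described here are mature neutrophils with many transcripts of the chemokine genes Ccl3 and Ccl4, taken from mouse tongue tumours. They were chosen from single-cell RNA counts by a rule on unique molecular identifiers (UMIs, each standing for a captured transcript). A barcode counted as a mature neutrophil if at least 0.5% of its UMIs were S100a8 or S100a9, if it held at least 1 UMI of Csf3r, Cxcr2, Retnlg or Clec4d, if Camp, Ngp and Ltf made up under 1% of its UMIs, if C1qa and Cd3e were at 0, and if Krt5 and Krt14 made up under 0.5%. A mature neutrophil with at least 5 UMIs of Ccl3 and Ccl4 together was called a high cell, and one with fewer a low cell. There were 823 high cells among 22737 kept barcodes, 455 of them in the JQ1 library and 368 in the control library. The 168 low cells were split evenly, 84 in each library, and a further 136 JQ1 and 3 control barcodes were immature neutrophils, with more of the granule transcripts.

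The tumours were head and neck squamous cell carcinoma of the tongue in wild-type C57BL/6 mice, induced with the carcinogen 4NQO (4-nitroquinoline 1-oxide). All samples came from such tumours. For 10 days the mice received either JQ1, a small molecule that blocks the acetyl-lysine pocket of BET bromodomain proteins, or a control treatment. Each treatment gave 1 library of dissociated tongue tissue whose mice are not described further: the labels name neither the number of mice behind it nor their age, and cells of a library are not replicates. With 1 library a treatment there is no test between treatments, and every difference below compares those libraries.

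Ccl3 (MIP-1α) and Ccl4 (MIP-1β) encode small secreted chemokines that lie in a cluster on mouse chromosome 11 (Ccl3 at chr11:83647844-83649355, minus strand, and Ccl4 at chr11:83662584-83664683, plus strand, GENCODE annotation of GRCm38) and act through chemokine receptors such as CCR1, with which monocytes, T cells and other leukocytes are drawn to inflamed tissue. Neutrophils leave the bone marrow with granule proteins already made, express CXCR2 in blood, and in inflamed or tumour tissue switch on cytokine and chemokine genes through NF-kB and AP-1 factors. Ccl3 and Ccl4 are among the genes that many tumour neutrophils switch on.

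Neutrophil markers that took no part in the rule were present. All 10 were detected in both libraries, with at least 1 UMI in 99.8% of JQ1 and 99.7% of control high cells. Their summed level, given in CPM (summed UMIs of the genes scaled to a common library total), was 13383 CPM in JQ1 and 15105 CPM in control high cells, against 132 and 69.7 CPM in the other kept cells of each library. Il1b, named as a marker of these cells, had a UMI in 95.6% of JQ1 and 95.7% of control high cells. It gave 7234 CPM of the summed level in JQ1 and 9623 CPM in control. Macrophages had Il1b too, at 2431 and 3151 CPM. Csf3r, the receptor for granulocyte colony-stimulating factor and a gene of the rule, was found in 63.7% and 55.4%. Of 11 developing neutrophil markers outside the rule, 11 were detected in JQ1 and 6 in control, in 51.0% and 69.3% of high cells. Their summed level was 2294 and 2447 CPM, against 293 and 295 CPM in the other kept cells. Chil3 is among them and is described further on. Of 12 mast cell and basophil markers, 9 were at 0 in the high cells of each library, among them Cpa3, Ms4a2 and Mcpt8, and the list's level came almost wholly from Hdc, a gene that neutrophils use too. Macrophage markers were detected for 9 of 12 genes in JQ1 and 8 of 12 in control, in 36.7% and 30.7% of high cells, at 316 and 396 CPM against 636 and 403 CPM in the other kept cells, with Mrc1 and Folr2 at 0 in both. All 10 monocyte markers, some of which neutrophils share, were detected in both libraries, in 56.3% and 72.0% of high cells, at 1514 and 2640.2 CPM against 1183 and 564 CPM in the other kept cells. Of 7 eosinophil markers 3 were detected, in 3.08% and 2.99% of high cells, with Epx and Prg2 at 0. The part of monocyte or macrophage RNA in the results was not tested.

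RNA of other tongue cells was present in these barcodes and differed between the libraries. Salivary gland markers (8 of 9 detected in JQ1, 6 of 9 in control) had a UMI in 83.5% of JQ1 and 12.8% of control high cells, with a summed level of 6508 against 387 CPM. Fibroblast markers were found in 38% against 6.25% of cells, haemoglobin and other erythroid markers in 70.5% against 0.272%, and keratinocyte markers in 41.8% against 69.6%. The same direction held in all other kept cells, with salivary gland markers at 20727 CPM in JQ1 and 1187 CPM in control. High cells had a median of 1851 UMIs in JQ1 and 1670.5 UMIs in control, against 3948.5 and 11435 UMIs over all kept barcodes. A few high cells were far deeper: 13 in JQ1 and 3 in control exceeded 10000 UMIs and held 18.8% and 11.4% of all UMIs of the high cells. Values that leaving them out moves by over 1.5 times are given both ways for the genes named. The libraries shared 40 barcode sequences, carried by 2 JQ1 and 3 control high cells.

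High cells carried a median of 32 UMIs of Ccl3 and Ccl4 in JQ1 (quartiles 17 and 62.5, highest 483) and 36 in control (quartiles 17 and 75.25, highest 399). These made up a median of 1.77% of a cell's UMIs in JQ1 and 2.24% in control. Few cells lay at the threshold. Just inside it, 16 JQ1 and 15 control cells had exactly 5 UMIs, and just outside it 6 JQ1 and 5 control cells had 4. Cells with neither transcript numbered 43 in JQ1 and 55 in control. These numbers follow from the rule and describe the cells it chose.

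**Figure D1:**
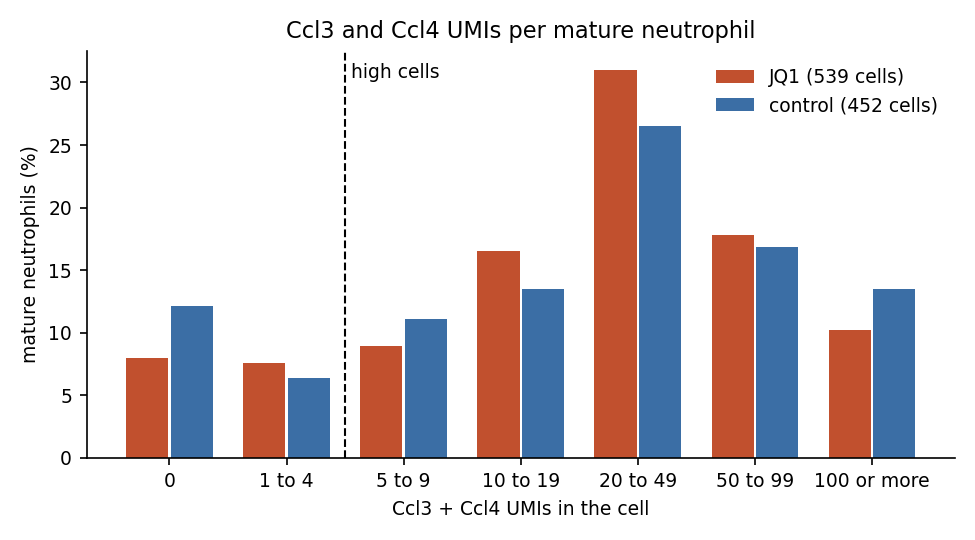
Share of mature neutrophils (y axis, percent) by the UMIs of Ccl3 and Ccl4 in the cell (x axis, classes of unequal width), for 539 JQ1 and 452 control cells; the dashed line is the threshold of 5 UMIs. The most filled class in both libraries is 20 to 49 UMIs, with 31.0% of JQ1 and 26.5% of control cells, and cells with 0 UMIs make up 7.98% and 12.2%.

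High cells made up 84.4% of the mature neutrophils in JQ1 (455 of 539, exact 95% binomial interval 81.1 to 87.4) and 81.4% in control (368 of 452, 77.5 to 84.9). The difference of 3.0 percentage points had a Newcombe interval of -1.68 to 7.77, which spans both directions. Whether the share differs between the treatments was not tested. After each cell was thinned to 1000 UMIs, which left out 57 JQ1 and 59 control cells, the shares were 75.9% and 74.8%. Among all kept barcodes the high cells were 3.14% in JQ1 and 4.45% in control, shares that also depend on how many other cells a library holds. Among immature neutrophils the same threshold was passed by 67 of 136 JQ1 and 2 of 3 control cells. The threshold is on raw UMIs, and JQ1 immature cells were deeper, with a median of 4639 UMIs against 1851 in JQ1 high cells. The pair made up a median of 0.0892% of the UMIs of all JQ1 immature cells, against 1.77% in JQ1 high cells. The intervals cover counting error only, and cells of 1 library are not replicates.

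The balance of the 2 chemokines differed between the libraries. Ccl3 stood at 9163 CPM in JQ1 high cells and 15562 CPM in control high cells, whereas Ccl4 stood at 10359 and 10307 CPM. Ccl4 therefore gave 53.1% of the pair's UMIs in JQ1 and 39.8% in control. Cells with more Ccl4 than Ccl3 were 50.1% of JQ1 high cells (228 of 455) and 31.8% of control high cells (117 of 368). A Ccl4 UMI was found in 86.2% of JQ1 high cells (82.6 to 89.2) and 72.6% of control high cells (67.7 to 77.0), a difference of 13.6 points (8.06 to 19.2), while Ccl3 was found in 97.6% and 98.1%. The low cells differed the same way for Ccl4, with a UMI in 23.8% of JQ1 and 10.7% of control cells. Without the cells over 10000 UMIs, Ccl3 was at 11047 CPM in JQ1 and 17460.0 CPM in control, and Ccl4 at 12456 and 11556 CPM. The rule used the sum of the pair, so their balance within a cell was free to vary.

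High neutrophils held 46.8% of all Ccl3 and Ccl4 UMIs of the JQ1 library and 63.0% of those of the control library. Macrophages, defined by C1q transcripts, held 23.8% and 7.97%, and were richer in Ccl4 (8568 CPM in JQ1, 7273 CPM in control) than in Ccl3 (2436 and 1839 CPM). Cells that should lack both genes gave the level of free RNA: the threshold of 5 UMIs was passed by 0.118% of JQ1 and 0.409% of control fibroblasts and by 0.334% and 0.468% of keratinocytes, although those cells were deeper (median 4071 and 3309 UMIs for fibroblasts). Unclassified other cells held 23.2% and 25.4% of the pair's UMIs. The receptor gene Ccr1 was on the high neutrophils themselves at 462 CPM in JQ1 and 446 CPM in control, against 324 and 513 CPM in low neutrophils and 80.8 and 87.9 CPM in macrophages. Ccrl2, which encodes an atypical receptor that holds the chemoattractant chemerin at the cell surface, was at 2376 and 3378 CPM in high neutrophils.

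**Figure D2:**
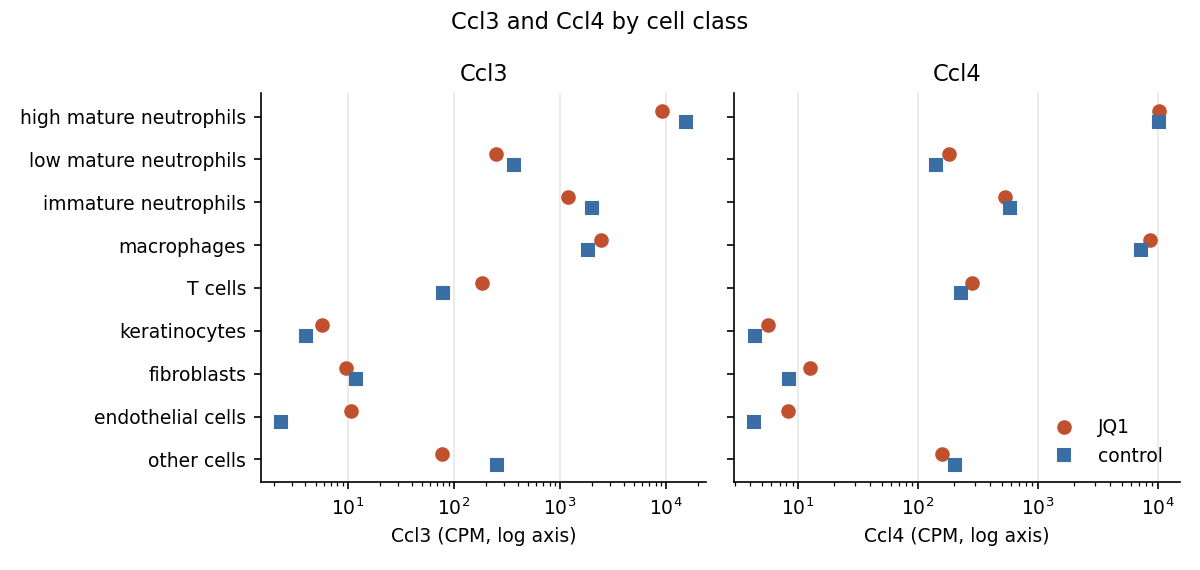
Level of Ccl3 (left) and Ccl4 (right) in 9 cell classes, in CPM of summed UMIs on a log axis, with circles for JQ1 and squares for control. High mature neutrophils lie farthest right in both panels, macrophages come close to them for Ccl4 (8568 CPM in JQ1) but not for Ccl3 (2436 CPM in JQ1), and keratinocytes and fibroblasts lie at or below 12.5 CPM.

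High cells were next set against low cells within each library. UMIs were summed over the cells of a class and scaled to CPM, a gene was measured if it reached 50 CPM in the higher class and 20 UMIs over both, and a ratio of at least 2 was called. The classes were cut on Ccl3 and Ccl4, so every ratio in this contrast describes the chosen cells, and intervals are 95% exact conditional intervals for counting error. In JQ1, 132 of 2973 measured genes were called higher (4.44%) and 318 lower (10.7%), and in control 203 of 2433 were higher (8.34%) and 220 lower (9.04%). Of 2120 genes measured in both libraries, 31 were called higher in both (1.46%) and 14 lower in both (0.66%). Without the cells over 10000 UMIs, 24 were higher (1.15%) and 25 lower (1.2%) of 2080, and 18 of the 31 and 11 of the 14 were called both with and without those cells. Within each library, leaving them out gave 4.44% higher and 14.8% lower in JQ1 and 5.04% higher and 8.49% lower in control. The median of all measured genes was -0.29 in JQ1 and -0.12 in control on the log2 scale, so an ordinary gene was slightly lower in high cells.

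Without the deep cells, Il1a, Spp1, Bcl2a1b and Tnf headed the genes that were higher in high cells; with them the gland genes Bpifb1 and Lipf came first, as described further on. When only cells within the quartiles of the high cells' depth were compared, 35 genes were higher in both libraries, of which 12 were among the 31. Il1a, which encodes the alarmin interleukin-1α, stood at 1489 CPM in high against 256 CPM in low cells of JQ1, a ratio of 5.81 (4.37 to 7.88). In control it stood at 2218 against 749.6 CPM, a ratio of 2.96 (2.41 to 3.68). Tnf, encoding tumour necrosis factor, stood at 2018 against 497 CPM in JQ1 (4.06-fold, 3.31 to 5.04) and 2373 against 963 CPM in control (2.47-fold, 2.05 to 2.99). A Tnf UMI was found in 76.3% of high and 45.2% of low cells of JQ1, and in 75.5% and 52.4% of control. Il1rn, whose product blocks the interleukin-1 receptor, was 4.19-fold higher in JQ1 (1073 against 256 CPM) and 2.09-fold higher in control (1106 against 529 CPM). Nlrp3, the inflammasome sensor through which interleukin-1β is matured, was at 1825 against 784 CPM in JQ1 and 1743 against 971 CPM in control, and its 1.80-fold ratio in control was short of the threshold. Il1b itself was nearly level: 7234 in high against 5904 CPM in low cells of JQ1, and 9623 against 9193 CPM in control.

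Of a list of other cytokines and growth factors, 10 genes were measured in both libraries. In both, 4 were called higher (Tnf, Il23a, Csf3 and Spp1) and 0 lower, beside 1.46% and 0.66% of all genes. Of the 10, 5 were above and 2 below 1 in both. Il23a, encoding the p19 chain of interleukin-23, stood at 317 in high against 109.8 CPM in low cells of JQ1 and at 704 against 142 CPM in control. Csf3, the gene of granulocyte colony-stimulating factor, stood at 188 against 62.8 CPM in JQ1 and 204 against 39.5 CPM in control. Spp1, the gene of the matrix protein osteopontin, stood at 1162 against 397 CPM in JQ1 and 347 against 55.2 CPM in control. Among the CXC chemokines, which draw in further neutrophils through CXCR2, Cxcl3 was 2.74-fold higher in each library and Cxcl1 4.77-fold and 2.26-fold higher in JQ1 and control. Cxcl2 was among the most abundant transcripts of all, at 41472 in high against 19345 CPM in low cells of JQ1 and 56850.0 against 42935 CPM in control. The 4 called cytokine genes had ratios of at least 2 in both libraries without the deep cells too. Within the depth window, Tnf had ratios of 3.75 and 2.69 and Il1a of 4.00 and 2.23 in JQ1 and control, while Il23a was at 1.68 in JQ1 and Csf3 at 1.58 and 1.44. Osm, encoding the interleukin-6 family cytokine oncostatin M, had lower levels in high cells, with ratios of 0.762 and 0.686 in JQ1 and control, and Csf1, encoding the macrophage growth factor, had 1.18 and 1.04. Of the other Ccl chemokines measured, 4 in JQ1 and 2 in control, 0 was called, with medians of -0.33 and -0.14 on the log2 scale. Ccl6 had ratios of 0.746 and 0.701.

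**Figure D3:**
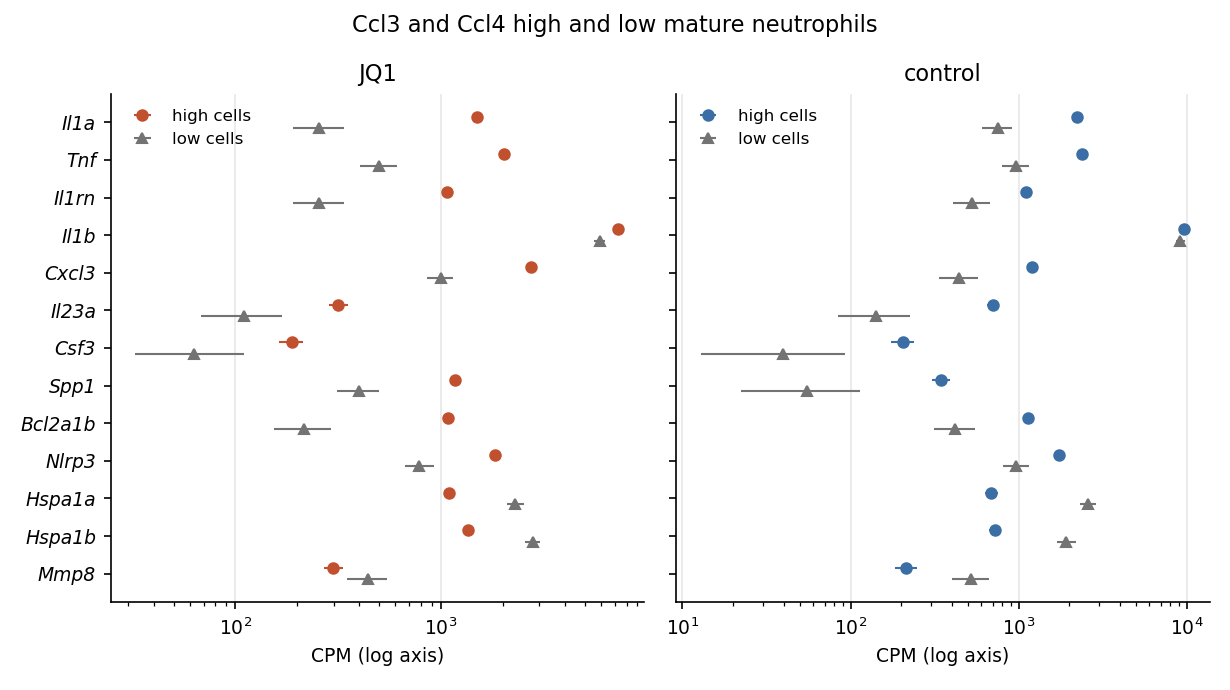
Level of 13 genes in CPM (log axis) in high cells (circles) and low cells (grey triangles) of the JQ1 library (left) and the control library (right), with exact 95% Poisson intervals. Cytokine, Bcl2a1b and Nlrp3 points of high cells lie to the right of those of low cells in both panels, Il1b points nearly coincide (7234 and 5904 CPM in JQ1), and the heat shock genes and Mmp8 lie to the left.

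The DNA just before the start of the chemokine and cytokine genes is shown for Ccl3, the gene the cells were chosen on, and for 3 genes that were higher in high cells in both libraries. Each sequence is the 250 bases upstream of the gene's start in RefSeq, build GRCm38.p6, on the gene's strand, 5′ to 3′: Ccl3 at chr11:83649379-83649628 (minus strand), Tnf at chr17:35202008-35202257 (minus strand), Il1a at chr2:129309973-129310222 (minus strand) and Cxcl3 at chr5:90785851-90786100 (plus strand). Capitals mark matches to the AP-1 motif TGANTCA or to the NF-kB consensus, both searched on both strands.
Ccl3: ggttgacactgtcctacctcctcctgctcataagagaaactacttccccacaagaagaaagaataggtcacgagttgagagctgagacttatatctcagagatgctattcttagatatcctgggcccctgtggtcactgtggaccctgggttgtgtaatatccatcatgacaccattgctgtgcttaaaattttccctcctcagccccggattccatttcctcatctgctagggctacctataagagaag
Tnf: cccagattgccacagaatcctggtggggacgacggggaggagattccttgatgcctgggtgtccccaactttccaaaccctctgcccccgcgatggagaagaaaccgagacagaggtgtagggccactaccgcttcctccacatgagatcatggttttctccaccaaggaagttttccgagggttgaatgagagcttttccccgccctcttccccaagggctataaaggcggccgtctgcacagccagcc
Il1a: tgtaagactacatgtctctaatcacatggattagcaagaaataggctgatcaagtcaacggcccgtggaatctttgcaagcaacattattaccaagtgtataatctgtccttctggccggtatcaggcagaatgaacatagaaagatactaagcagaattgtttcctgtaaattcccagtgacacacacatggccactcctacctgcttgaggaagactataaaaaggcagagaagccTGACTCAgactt
Cxcl3: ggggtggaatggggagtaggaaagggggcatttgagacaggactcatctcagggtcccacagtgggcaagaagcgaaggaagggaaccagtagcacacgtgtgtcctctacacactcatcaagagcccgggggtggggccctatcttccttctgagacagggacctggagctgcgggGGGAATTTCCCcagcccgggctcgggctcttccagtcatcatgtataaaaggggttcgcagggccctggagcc
Il1a held 1 AP-1 match, 12 to 6 bases before the start. Cxcl3 held 2 overlapping NF-kB matches, 73 to 63 bases before it. Ccl3 and Tnf held 0 matches of either motif in this window. Over all 32851 promoters of the table, 7.25% had an NF-kB match and 6.75% an AP-1 match in a window of this length, so a match in a single promoter is a description of its letters only.

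Genes of the NF-kB pathway were mostly above 1. Of 30 listed subunits and targets, 28 were measured in each library, and 26 in JQ1 and 20 in control had a ratio above 1, with medians of 0.54 and 0.21 on the log2 scale beside -0.29 and -0.12 for all measured genes. In JQ1 3 and in control 1 reached 2-fold, beside 4.44% and 8.34% of all genes, and 0 did so in both, beside 1.46%. Icam1, the adhesion molecule to which leukocyte integrins bind, was 1.88-fold and 1.84-fold higher in JQ1 and control. Nfkbia, which encodes the inhibitor of NF-kB and is itself an NF-kB target, was nearly level with log2 ratios of 0.37 and -0.06. Slc7a11, the cystine importer that feeds glutathione synthesis, was at 2657 in high against 1098 CPM in low cells of JQ1 and 3428 against 2233 CPM in control.

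Survival genes of the Bcl2a1 family were higher in both libraries. These genes encode close copies of the anti-apoptotic protein A1, and reads of one may be counted for another, so their single values are uncertain. Bcl2a1b stood at 1081 in high against 214 CPM in low cells of JQ1 (5.04-fold, 3.70 to 7.06) and 1134 against 418 CPM in control (2.71-fold, 2.05 to 3.65). Bcl2a1a and Bcl2a1d had ratios of 3.40 and 4.07 in JQ1 and of 2.56 and 13.7 in control, the last from 1 UMI in the low cells (2.39 to 546). These were the 3 called higher in both libraries of 11 measured genes of a survival and cell death list, beside 1.46% of all genes. Mcl1, another anti-apoptotic gene on which neutrophils depend, was within 1.14-fold in either direction.

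The genes lower in high cells included heat shock and AP-1 genes. The inducible heat shock genes Hspa1a and Hspa1b, near-identical copies, stood at 1098 and 1345 CPM in high against 2296 and 2788 CPM in low cells of JQ1. In control they stood at 688 and 724 CPM in high against 2580.4 and 1925 CPM in low cells. Jun and Jund, subunits of AP-1, had log2 ratios of -0.67 and -0.59 in JQ1 and -0.75 and -0.61 in control, and Btg2, an immediate early gene that restrains growth, of -0.58 and -0.52. Fbxl5, part of the ubiquitin ligase that senses iron, stood at 254 in high against 439 CPM in low cells of JQ1 and 232 against 513 CPM in control. Zyx, the adhesion protein zyxin, and Hsp90aa1, a heat-inducible chaperone, stood at 267 and 967 against 439 and 1809.5 CPM in JQ1 and at 229 and 1208 against 434 and 1752 CPM in control. Of 22 immediate early and stress genes measured in both libraries, 2 were called lower and 0 higher, beside 0.66% and 1.46% of all genes. Of the 22, 16 had a ratio below 1 in both. When only cells within the quartiles of the high cells' depth were compared, none of the 14 genes was called lower in both libraries. Hspa1b turned to 1.13 times the low cells' level in JQ1 but was at 0.233 times in control. Hspa1a was at 0.628 times in JQ1 and 0.179 times in control. Jun and Hsp90aa1 were at 1.01 and 1.32 times in JQ1 and at 0.638 and 0.722 times in control. Jund, Btg2, Fbxl5 and Zyx stayed below the low cells' level in both libraries. Low cells were shallower, with a median of 1507 UMIs in JQ1 and 1418.5 in control, and the part of depth in these ratios was not tested further.

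Genes of the blood neutrophil gave no common direction in the 2 libraries. Of 23 such genes measured in both, 0 was called either way in both, with a median of 0.41 in JQ1 and -0.44 in control on the log2 scale. Of the 23, 3 were above and 9 below 1 in both libraries. Mmp8 and Retnlg, which are not members of that list, were lower in high cells of each library. Mmp8, neutrophil collagenase, stood at 299.6 against 439 CPM in JQ1 and 214 against 521 CPM in control. Retnlg, a secreted protein of circulating neutrophils and a gene of the rule, stood at 4984 against 8655 CPM in JQ1 and 4175 against 8664 CPM in control. Of 11 secondary and tertiary granule genes measured in both libraries 0 was called either way, with 6 below 1 in both. Of 21 surface receptors, 19 tumour neutrophil genes, 22 hypoxia and glycolysis genes, 10 suppressive and checkpoint genes, 6 NADPH oxidase genes, 5 interferon genes and 9 BET response genes measured in both, 0 was called in both, which with 1.46% and 0.66% of all genes called says little about any list. Cxcr4, the receptor that returns aged neutrophils to the marrow, went opposite ways, 1.35-fold higher in JQ1 (353 against 261 CPM) and lower in control (205 against 434 CPM). This difference between the libraries was not tested.

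Some genes with the largest ratios came from a few deep cells. Lipf and Bpifb1, made in salivary and lingual glands, stood at 5748 and 2573 CPM in high against 1674 and 533 CPM in low cells of JQ1, and at 4218 and 1590.4 against 158 and 55.2 CPM in control. Without cells over 10000 UMIs their log2 ratios were 0.14 and 0.48 in JQ1 and -0.54 and 0.34 in control. The gland genes Wfdc18 and Sbpl behaved alike, with ratios of 2.18 and 1.84 in JQ1 and 3.40 and 28.6 in control, and of 0.957 and 0.969 in JQ1 and 0.951 and 0.682 in control without those cells. A Lipf UMI was in 92.1% of high and 91.7% of low cells of JQ1. The 4 of 10 antigen presentation genes called higher in both libraries, beside 1.46% of all genes, were H2-Aa, H2-Ab1, H2-Eb1 and Cd74. These MHC class II genes and their chaperone Cd74 had a UMI in at most 8.97% of high cells in either library. In JQ1 the ratios of H2-Aa, H2-Ab1, H2-Eb1 and Cd74 were 23.1, 25.2, 9.82 and 3.33 with the deep cells and 1.11, 3.79, 2.69 and 0.917 without them. Without them H2-Aa, H2-Ab1 and H2-Eb1 were too scarce in JQ1 to count as measured. In control without the deep cells, 4 of 12 measured genes of the list were called higher and 1 lower, beside 5.04% and 8.49% of all genes.

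Tnf and Il1rn were higher in each class of mature neutrophils with more Ccl3 and Ccl4 UMIs, in both libraries. In JQ1, Tnf was at 260.0, 965, 1102, 1441 and 3152 CPM in cells with 0, 1 to 4, 5 to 14, 15 to 49 and at least 50 UMIs of the pair. In control it was at 809, 1230.0, 1789, 1815 and 3297 CPM in the same classes. Il1rn was at 134 CPM in the lowest and 1511 CPM in the highest class of JQ1 and at 485 and 1424 CPM in those of control. Il1a was at 78.8, 607, 766, 1105 and 2300.4 CPM in JQ1 and, with a less even order, at 784, 691, 1964, 1693 and 2917 CPM in control. Retnlg was lowest in the highest class of each library, at 2634 CPM in JQ1 and 3749 CPM in control, and highest at 10441 CPM in JQ1 cells with 1 to 4 UMIs and 9193 CPM in control cells with 0. Il1b showed no such order in either library, between 4679 and 8428 CPM in JQ1 and between 7663 and 11847 CPM in control. Depth moved with the classes, at a median of 1344 UMIs in the lowest and 2008 UMIs in the highest class of JQ1 and 1363 and 1854 UMIs in those of control.

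**Figure D4:**
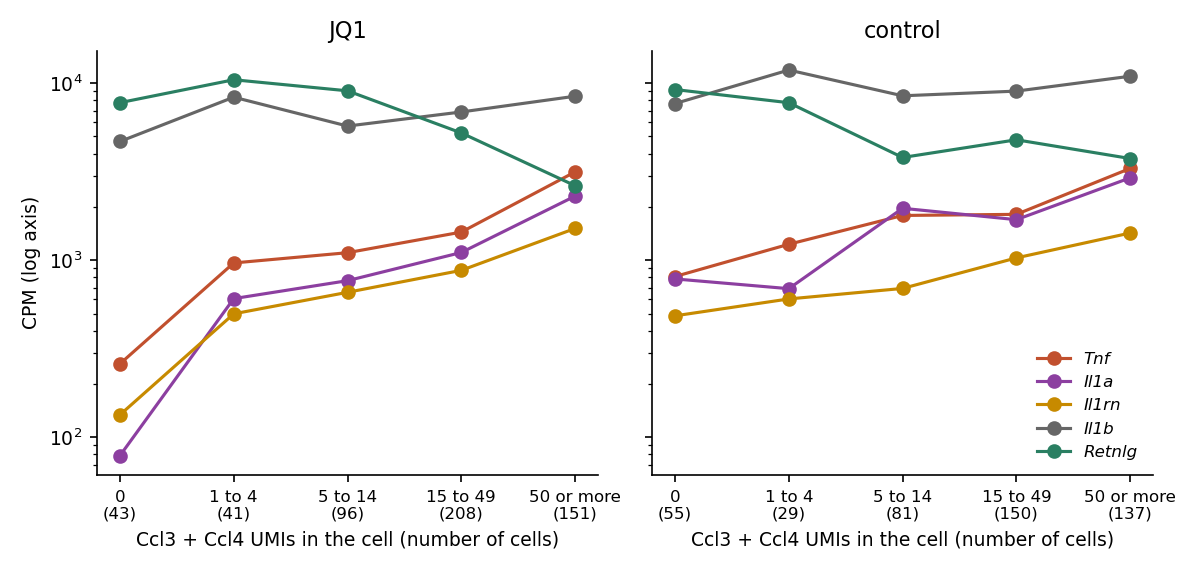
Level of 5 genes in CPM (log axis) in mature neutrophils grouped by their UMIs of Ccl3 and Ccl4 (x axis, number of cells in brackets), for JQ1 (left) and control (right). Tnf, Il1a and Il1rn are highest in the class of at least 50 UMIs in both panels (Tnf 3152 CPM in JQ1 and 3297 CPM in control), Retnlg is lowest there, and Il1b has no steady slope.

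High cells of the 2 libraries were then set against each other. Of 2525 measured genes, 339 were called higher in JQ1 (13.4%) and 104 lower (4.12%). Without cells over 10000 UMIs, 231 were higher (9.86%) and 62 lower (2.65%) of 2343. Within the quartiles of the high cells' depth the balance turned, with 134 higher and 197 lower, of which 64 were among the 339 and 42 among the 104. The median of all measured genes was 0.03 on the log2 scale. In low cells the same comparison called 428 of 2108 genes higher (20.3%) and 189 lower (8.97%). Low cells without the deep cells gave 246 of 1792 higher (13.7%) and 139 lower (7.76%). Among the 2009 genes measured in both classes, 172 of the 208 higher in JQ1 high cells were also higher in JQ1 low cells, and 26 of the 48 lower ones were also lower. The largest ratios belonged to genes of other tongue cells. Agr2 and Tff2, secreted by gland and mucous cells, stood at 1581 and 3771 CPM in JQ1 and 18.4 and 122 CPM in control high cells, and at 3342 and 9353 CPM against 56.1 and 639.8 CPM in the other kept cells. Without the deep cells they stood at 496 and 1325 CPM in JQ1 and 17.8 and 138 CPM in control high cells. Fabp5 and Mt4, abundant in keratinocytes, stood at 313 and 104 CPM in JQ1 against 5392 and 2255 CPM in control high cells, and without the deep cells at 344 and 123 against 567 and 83.1 CPM. Their part in the counts above was not tested. The values below therefore come from genes of the lists and from genes enriched over the other kept cells. In the library where it was higher, an enriched gene had at least 2 times the level of that library's other kept cells. Of 890 such genes without the deep cells, 25 (2.81%) were called higher and 33 (3.71%) lower. Genes passed this filter through the library where they were high. The counts therefore follow in part from it and are given as a description.

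Several interferon-induced genes had higher levels in JQ1 high cells. Of 39 listed genes only 9 were abundant enough to be measured. Of these, 6 were called higher and 0 lower, beside 13.4% and 4.12% of all genes. Some of the 9 reached 50 CPM only in JQ1, where they were high. The count therefore follows in part from the filter and is given as a description. Isg15, a ubiquitin-like modifier, stood at 118 CPM (99.3 to 139.6) in JQ1 and 36.8 CPM (24.5 to 53.2) in control, 3.21-fold (2.12 to 5.0). Gbp2, a GTPase that attacks pathogen-containing vacuoles, stood at 191 against 84.2 CPM, 2.27-fold (1.71 to 3.04). Rsad2 and Isg20 stood at 50.5 and 71.1 CPM in JQ1 against 10.5 and 21.0 CPM in control. Ifi27l2a stood at 77.1 against 19.7 CPM, 3.90-fold, and without the deep cells at 89.7 against 8.91 CPM, 10.1-fold. Slfn4 was the member below 1, at 148 against 199 CPM. In low cells Isg15 stood at 78.4 against 39.5 CPM and Gbp2 at 152 against 126 CPM. There, 2 of 8 measured members were called higher, beside 20.3% of all genes. Without the deep cells, 4 of 8 were called higher in low cells, beside 13.7% of all genes. In high cells 7 of 10 were then called higher, beside 9.86%, with the same limit from the filter. Other kept cells of the JQ1 library also had more Isg15 (34.6 against 9.53 CPM) and Gbp2 (94.3 against 17.8 CPM). Cxcl10, an interferon-induced chemokine, was at 193 CPM in JQ1 and 89.5 CPM in control high cells.

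Of a list of 19 measured tumour neutrophil genes, 4 were called lower in JQ1 high cells, beside 4.12% of all genes, and 0 higher, 16 had a ratio below 1 and the median was -0.37. Hmox1, encoding the haem-degrading enzyme heme oxygenase 1, stood at 1125 CPM (1065 to 1188) in JQ1 and 4296 CPM in control (4150.3 to 4446), 3.82-fold lower (3.58 to 4.07). In low cells it stood at 753 against 5027 CPM, whereas the other kept cells went the opposite way at 139 against 70.5 CPM. The ferritin light chain gene Ftl1 stood at 6454 against 13063 CPM and the heavy chain gene Fth1 at 51621 against 72471 CPM. Gclm, a subunit of the enzyme that starts glutathione synthesis, stood at 92.5 against 245 CPM, and Cstb, the protease inhibitor cystatin B, at 844 against 1785 CPM. The 4 called genes were Hmox1, Ftl1, Gclm and Cstb. Within the quartiles of the high cells' depth Hmox1 had a ratio of 0.286, and Ftl1, Gclm and Cstb of 0.545, 0.589 and 0.534, short of 2-fold. Gclm and Cstb were lower in the other kept cells of JQ1 too, at 236 against 609 CPM and 345 against 894 CPM. Without the deep cells 3 were lower and the median was -0.46. In low cells 9 of 19 members were called lower and 0 higher, beside 8.97% of all genes lower, with a median of -0.85. Without the deep cells 8 of 18 were lower in low cells, beside 7.76% of all genes. Haemoglobin transcripts, absent from all but 0.272% of control high cells, were in most JQ1 high cells (Hbb-bs in 51.9%), and their part in the level of Hmox1 was not tested.

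Of 23 measured glycolysis and hypoxia genes, 19 had a ratio below 1, the median was -0.41, and 1, the mitophagy receptor Bnip3, was called lower, at 45.4 CPM in JQ1 and 117 CPM in control, a share near the 4.12% of all genes. Ldha, lactate dehydrogenase A, stood at 355 against 701 CPM and Aldoa, an aldolase of glycolysis, at 255 against 503 CPM, both just short of 2-fold. Ldha and Aldoa were lower in the other kept cells of JQ1 as well, at 242 against 784 CPM and 289.9 against 547 CPM. In low cells 5 of 22 measured genes of the list were called lower and 0 higher, beside 8.97% of all genes lower, with a median of -0.43. The NADPH oxidase subunit gene Ncf4 stood at 114 CPM in JQ1 and 266 CPM in control. It was the 1 of 6 oxidase genes called lower, beside 4.12% of all genes, and 0 was called higher.

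The inflammatory genes described above, Il1b among them, differed in their direction between the libraries. Tnf, Il1a, Il1b and Il1rn had JQ1 to control ratios of 0.850, 0.671, 0.752 and 0.970. Of 28 NF-kB genes, 1 was called lower, a share near the 4.12% of all genes, and 0 higher, and the median was -0.23. The called gene was Ier3, an early response gene that protects cells from TNF-induced death, at 2223 CPM in JQ1 and 5263 CPM in control. In low cells 8 of 27 NF-kB genes were called lower and 1 higher, beside 8.97% and 20.3% of all genes. Their median there was -0.53. Without the deep cells 5 were lower in low cells, beside 7.76% of all genes, with a median of -0.18. Il23a in high cells stood at 317 against 704 CPM, 2.22-fold lower (1.94 to 2.54), and within the depth window at 0.571 times the control level. Its level in low cells was 109.8 CPM in JQ1 and 142 CPM in control. Ikbke, an NF-kB and interferon pathway kinase, stood at 73.6 against 214 CPM. Cxcl3 went the other way at 2726 against 1209 CPM (2.25-fold, 2.09 to 2.43), found in 45.1% of JQ1 and 23.6% of control high cells, while Cxcl2 stood at 41472 against 56850.0 CPM. Spp1 stood at 1162 against 347 CPM (3.35-fold, 2.93 to 3.83), and Ccl9, another CCR1 ligand, at 66.8 against 13.2 CPM.

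Apart from Elane and Mpo, the genes that follow were chosen as enriched without the deep cells. Each had at least 2 times the level of the other kept cells in the library where it was then higher. Chil3, a chitinase-like protein of developing and tissue neutrophils, stood at 929 CPM in JQ1 and 2357 CPM in control high cells and at 795 against 2075 CPM in low cells. Entpd1, the ectonucleotidase CD39 that removes extracellular ATP, stood at 248 against 114 CPM and was found in 38.5% of JQ1 and 19% of control cells. Cd300c2, an activating myeloid receptor, stood at 44.5 against 147 CPM. Arf2, a small GTPase of the Golgi, and Clec4n, the fungal receptor dectin-2, stood at 27.4 and 65.1 CPM in JQ1 and 97.3 and 178 CPM in control. Antxr2, an anthrax toxin receptor, and Slc15a3, a lysosomal peptide transporter, stood at 271 and 334 against 141 and 182 CPM, short of 2-fold. Saa3, an acute phase protein, stood at 3826 against 3159.8 CPM over all high cells, but at 1474 against 3466 CPM without the deep cells. The primary granule genes Elane and Mpo were at 569 and 211 CPM in JQ1 and 0 in control, from 0.659% and 1.10% of JQ1 cells, and at 1.05 and 3.16 CPM in JQ1 without the deep cells.

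Of 22 listed genes that respond to BET inhibitors in other cells, 11 were measured and 0 was called in either direction, with a median of 0.04. With 13.4% and 4.12% of all genes called, few of 11 would be called in any list. Hexim1, an inhibitor of the elongation factor P-TEFb whose transcript rises in many cell types under BET inhibitors, stood at 170.4 CPM in JQ1 and 158 CPM in control high cells (ratio 1.08, 0.856 to 1.37). Brd2, a target of the drug, had a ratio of 1.09 (0.929 to 1.28). The immediate early gene Fos and the heat shock gene Hsph1 were higher in JQ1, at 1449.5 against 613 CPM and 149.8 against 14.5 CPM, as they were in the other kept cells at 3214 against 1519.8 CPM and 361 against 95.3 CPM. They moved with the library in neutrophils and in the other cells, and their part in the other differences was not tested.

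**Figure D5:**
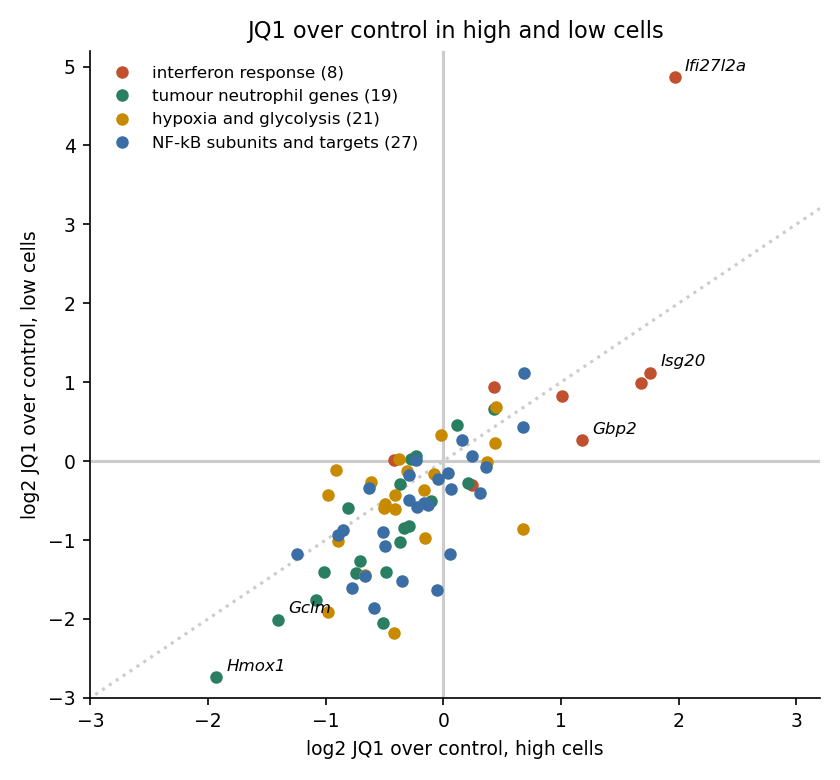
Log2 ratio of JQ1 to control in high cells (x axis) and low cells (y axis) for the genes of 4 lists measured in both classes; the dotted line marks equal ratios. Of the 8 interferon genes 7 lie to the right of 0, the labelled Ifi27l2a, Isg20 and Gbp2 among them, while Hmox1 and Gclm lie at the lower left, with Hmox1 at -1.93 in high and -2.74 in low cells.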

How the data were processed

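Tongue tumour cells of 2 groups, JQ1 and control, were profiled with 10x Genomics 3′ v3.1 kits on an MGI2000 sequencer, 1 library each. The deposited matrices hold UMI counts per gene and barcode, which the authors made with Cell Ranger 3.1.0 on mm10, per the submitters' processing notes, which also name Seurat 4.0.0. They hold 16233 JQ1 and 9754 control barcodes with 99565417 and 118382532 UMIs. Barcodes holding 200 genes or more, less than 20% of UMIs mitochondrial, were kept here (14468 JQ1, 8269 control).

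The members, gene lists and comparisons were chosen with earlier results of these data known. UMIs of all cells of a class in a library were added and scaled to a common total (CPM). Ratios carry exact conditional intervals, CPM exact Poisson intervals and shares exact binomial (Clopper-Pearson) intervals at 95%, differences of shares Newcombe intervals. A sum of 0 was set to 3 counts before a ratio was taken. No p-value was computed, since there is 1 library a group. Doublets were not removed. Scrublet, run in scanpy 1.11.5, marked 20 JQ1 and 5 control high cells, and their removal was an alternative. Ratios and intervals were run on simulated Poisson counts. That is the model the intervals assume, so the run did not cover the uneven depth of the cells.

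Besides list members, genes were named by a rule: the 12 higher and 8 lower in high cells in both libraries, and the 10 higher and 10 lower in JQ1, with the largest ratio by the interval bound nearest to 1 (the smaller of both libraries), measured and found in at least 10% of cells of the higher class, leaving out ribosomal, mitochondrial, haemoglobin, predicted, sex-linked marker and rule genes and the keratin and gland genes of the marker lists. Naming without cells over 10000 UMIs was added after the data were seen. So was naming among genes at least 2 times as high as in other kept cells of the library where they were higher. Gene positions are from GENCODE, promoters from RefSeq. A few genes chosen by these rules are not reported here.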

Additional observations from a re-analysis of the deposited data

How the results depend on the processing

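No paired analysis was possible because each treatment has 1 library, and no replicate could be left out. The share of high cells was 75.9% in JQ1 and 74.8% in control after thinning, and 75.5% and 70.4% with the threshold at 10 UMIs. It was 77.3% in JQ1 with all neutrophils as denominator, where JQ1 minus control became -3.99 points, and 85.5% in control with a stricter barcode filter. Genes higher in high cells in both libraries (31) numbered 76 with the threshold at 0.2% of UMIs, 71 at 10 CPM and 72 at 1.5-fold. Genes lower in both (14) numbered 29 without doublet calls, 24 with the threshold at 3 UMIs, 174 at 0.2% of UMIs, 25 without deep cells, 6 relative to the median ratio, 25 by the mean of CPM per cell, 216 at 10 CPM and 129 at 1.5-fold. Genes higher in JQ1 high cells (339) numbered 224 without doublet calls, 134 within the quartiles of depth, 154 by the mean per cell, 1741 at 10 CPM and 542 at 1.5-fold. Genes lower (104) numbered 58 at 0.2% of UMIs, 62 without deep cells, 197 within the quartiles of depth, 390 at 10 CPM and 316 at 1.5-fold.

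Some list medians of high over low cells changed sign (log2). With the threshold at 0.2% of UMIs they were 0.016 for Ccl chemokines, 0.049 for granule, 0.18 for NADPH oxidase and 0.89 for interferon genes in JQ1, and 0.10 for immediate early, 0.67 for surface receptor, 0.25 for mature blood neutrophil and 0.70 for interferon genes in control. Within the quartiles of depth they were 0.54 for Ccl chemokines and 0.056 for interferon genes in JQ1 and 0.20 for interferon genes in control. Interferon genes were at 0.060 in JQ1 and 0.18 in control with the threshold at 10 UMIs, and at 0.15 in control with the stricter filter. Ccl chemokines were at 1.23 in JQ1 without doublet calls. By the mean per cell, the interleukin-1 family was at -0.087 and mature blood neutrophil genes at -0.0094 in JQ1. Antigen presentation genes, JQ1 over control, were at -0.017 without deep cells.

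Single high over low ratios that had been called also crossed 1. Smaller ratios that did so, as for Jun and Hsp90aa1 in JQ1 within the quartiles of depth, are not listed here. Hspa1b was 1.13 in JQ1 within the quartiles of depth. Bpifb1, Lipf and Wfdc18 were 0.121, 0.136 and 0.215 in JQ1 at 0.2% of UMIs and 0.774, 0.840 and 0.961 within the quartiles, where Lipf was 0.598 in control. Without deep cells Wfdc18 and Cd74 were 0.957 and 0.917 in JQ1, and Lipf, Wfdc18 and Sbpl 0.687, 0.951 and 0.682 in control. By the mean per cell Wfdc18 was 0.910 in JQ1 and 0.839 in control. JQ1 over control, Mt4 was 1.42 at 0.2% of UMIs and 1.48 without deep cells, and H2-Ab1 was 0.371 without them. The cause of these shifts was not tested. Of 86 values for the shares and gene counts 58 stayed close to those reported, as did 597 of 700 list medians, but a like count can hold other genes: with the threshold at 10 UMIs 1 of the 14 lower genes was shared, and with the stricter filter 6. Within the quartiles of depth 12 of the 31 higher and 0 of the 14 lower genes were shared. Ratios of genes under 50 CPM rest on few UMIs, which limits them.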
